A study of Mus musculus with 4 samples.

Results

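The genes described here are 37 genes of skeletal and striated muscle: regulators of myogenesis, proteins of the contractile filaments, of the Z-disc, of the calcium store and of the muscle membrane. They were chosen by name, with earlier results of these data known. A gene counted as measured where the annotation of the array gave a probe that symbol. Of the 37 genes 33 had a probe, out of 16593 genes with a probe, and these 33 genes had 49 probes. No probe carried the symbol of Myh3, Mybph, Tnnt2 or Neb.

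Total RNA from 4 kinds of mouse cell culture was hybridised to Illumina BeadChips: APNL+AuEMF, APNL, Primary neuron and Fibroblast, with 1 array each. By its title, the series is about dopamine neurons made from other cells by direct conversion in an electromagnetic field. The labels leave the letters APNL and AuEMF unexplained; they are read here, from outside knowledge of such work, as delivered transcription factors and as gold particles exposed to a field. Strain, age, tissue of origin, culture time, vector and selection of converted cells are not stated in the labels, and no array is labelled as a control for delivery, gold or field alone. A single array stands for each group, so differences could not be tested or checked in replicates. The comparisons share arrays and are not independent of each other.

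Skeletal muscle forms when myoblasts, held in that state by the transcription factors Myf5 and Myod1, leave the cell cycle, switch on myogenin (Myog) and fuse into fibres. The fibres then fill with sarcomeres, in which myosin thick filaments pull on actin thin filaments when calcium from the sarcoplasmic reticulum binds troponin. Embryonic and cardiac versions of many of these proteins appear early in skeletal muscle and are later replaced by adult versions.

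Regulation of these genes is often read from the bases just upstream of the transcription start. The 4 sequences below are those of members that stand for the patterns described later: both striated actins, the light chain with the widest range, and the 1 myosin heavy chain gene measured among the members. Each is the 250 bases before the start in RefSeq's promoter table (GRCm38.p6), 5′ to 3′. Capitals mark matches, on either strand, to the E-box letters CAGCTG or CACCTG, which the myogenic factors bind, to the MEF2 site or to the CArG box of serum response factor.
Acta1, chr8:123894776-123895025, minus strand: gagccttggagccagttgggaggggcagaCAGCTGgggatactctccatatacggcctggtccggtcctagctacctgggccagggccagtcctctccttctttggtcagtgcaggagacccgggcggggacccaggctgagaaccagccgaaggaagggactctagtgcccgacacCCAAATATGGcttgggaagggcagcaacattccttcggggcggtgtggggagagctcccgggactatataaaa
Actc1, chr2:114052876-114053125, minus strand: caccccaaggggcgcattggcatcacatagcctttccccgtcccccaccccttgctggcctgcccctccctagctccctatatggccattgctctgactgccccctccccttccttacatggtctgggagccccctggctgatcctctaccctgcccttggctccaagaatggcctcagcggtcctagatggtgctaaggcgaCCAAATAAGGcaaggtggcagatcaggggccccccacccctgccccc
Myl1, chr1:66945057-66945306, minus strand: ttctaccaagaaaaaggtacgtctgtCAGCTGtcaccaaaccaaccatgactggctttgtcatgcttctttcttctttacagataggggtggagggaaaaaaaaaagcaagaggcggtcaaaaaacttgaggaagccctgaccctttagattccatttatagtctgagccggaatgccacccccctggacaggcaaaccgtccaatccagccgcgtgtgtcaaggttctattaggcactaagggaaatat
Myh8, chr11:67276874-67277123, plus strand: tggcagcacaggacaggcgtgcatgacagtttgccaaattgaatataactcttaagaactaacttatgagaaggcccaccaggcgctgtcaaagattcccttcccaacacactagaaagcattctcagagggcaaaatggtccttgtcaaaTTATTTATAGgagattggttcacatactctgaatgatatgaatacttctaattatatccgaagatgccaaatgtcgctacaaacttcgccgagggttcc

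The CArG box in Acta1 began 73 bases before the start and that in Actc1 47 bases before it. Acta1 and Actc1 were the members with a CArG box, which 1.47% of all 32851 promoter windows of this length held. Of the 27 members with a RefSeq window, 9 held CAGCTG, against 13.0% of all windows, and 6 held CACCTG, against 17.2%. Of the 21 detected members among them, 7 and 5 did. A member counted if any of its windows held the letters, while the shares of all are per window, so the units differ. A MEF2 site stood in Casq2, Myh8 and Ttn, and in 2.92% of all windows. In Myh8 it began 99 bases before the start. A match of letters is a description and not a binding site, and these shares carry no test.

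Depth was similar on the arrays. Between 41.4% and 47.8% of the 25697 probes were detected at a detection p under 0.01, and the median raw signal lay between 169 and 207 intensity units. Levels below are log2 intensities after background correction and quantile normalization, and the lowest detected level was 6.58 on APNL+AuEMF, 6.93 on APNL, 6.36 on primary neurons and 7.13 on fibroblasts. Genes at or past a 2-fold difference were called higher or lower. For genes seen on just 1 array of a pair the difference is a lower bound, given as at least so many fold or marked as a bound. A gene with several probes is given by the probe with the highest mean level. The labels were checked against the summed linear level of marker lists. That of 20 neuron markers was 129978 in primary neurons and 13352 in fibroblasts, and that of 24 fibroblast markers was 144706 in primary neurons and 320779 in fibroblasts. Detection did not separate the arrays by fibroblast markers, since 22 of the 24 were detected on both.

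Muscle genes were present on the array labelled Fibroblast. Of the 33 members with a probe, 23 were detected on APNL+AuEMF, 24 on APNL, 11 on primary neurons and 24 on fibroblasts. Over all 16593 genes with a probe, the shares detected on these arrays were 51.7%, 49.1%, 52.6% and 47.3%. With any probe of a gene counted, 24 members were detected on APNL+AuEMF, Ryr1 being the added one. In all 24 members were detected on at least 1 array, 10 on all 4, and 13 on every array except that of the primary neurons. The 9 members detected on no array were Pax7, the marker of muscle stem cells, the myogenic factors Myf5, Myod1 and Myf6, the methyltransferase Smyd1, the calcium store proteins Casq1 and Trdn, the creatine kinase Ckm and the sarcoglycan Sgca. For these the level is only bounded by the lowest detected level of each array. Detected members thus included many structural genes but, among the factors that define the lineage, Myog alone. Because total RNA of a culture was measured, fewer muscle cells and less muscle RNA per cell cannot be told apart in any comparison below.

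**Figure D1:**
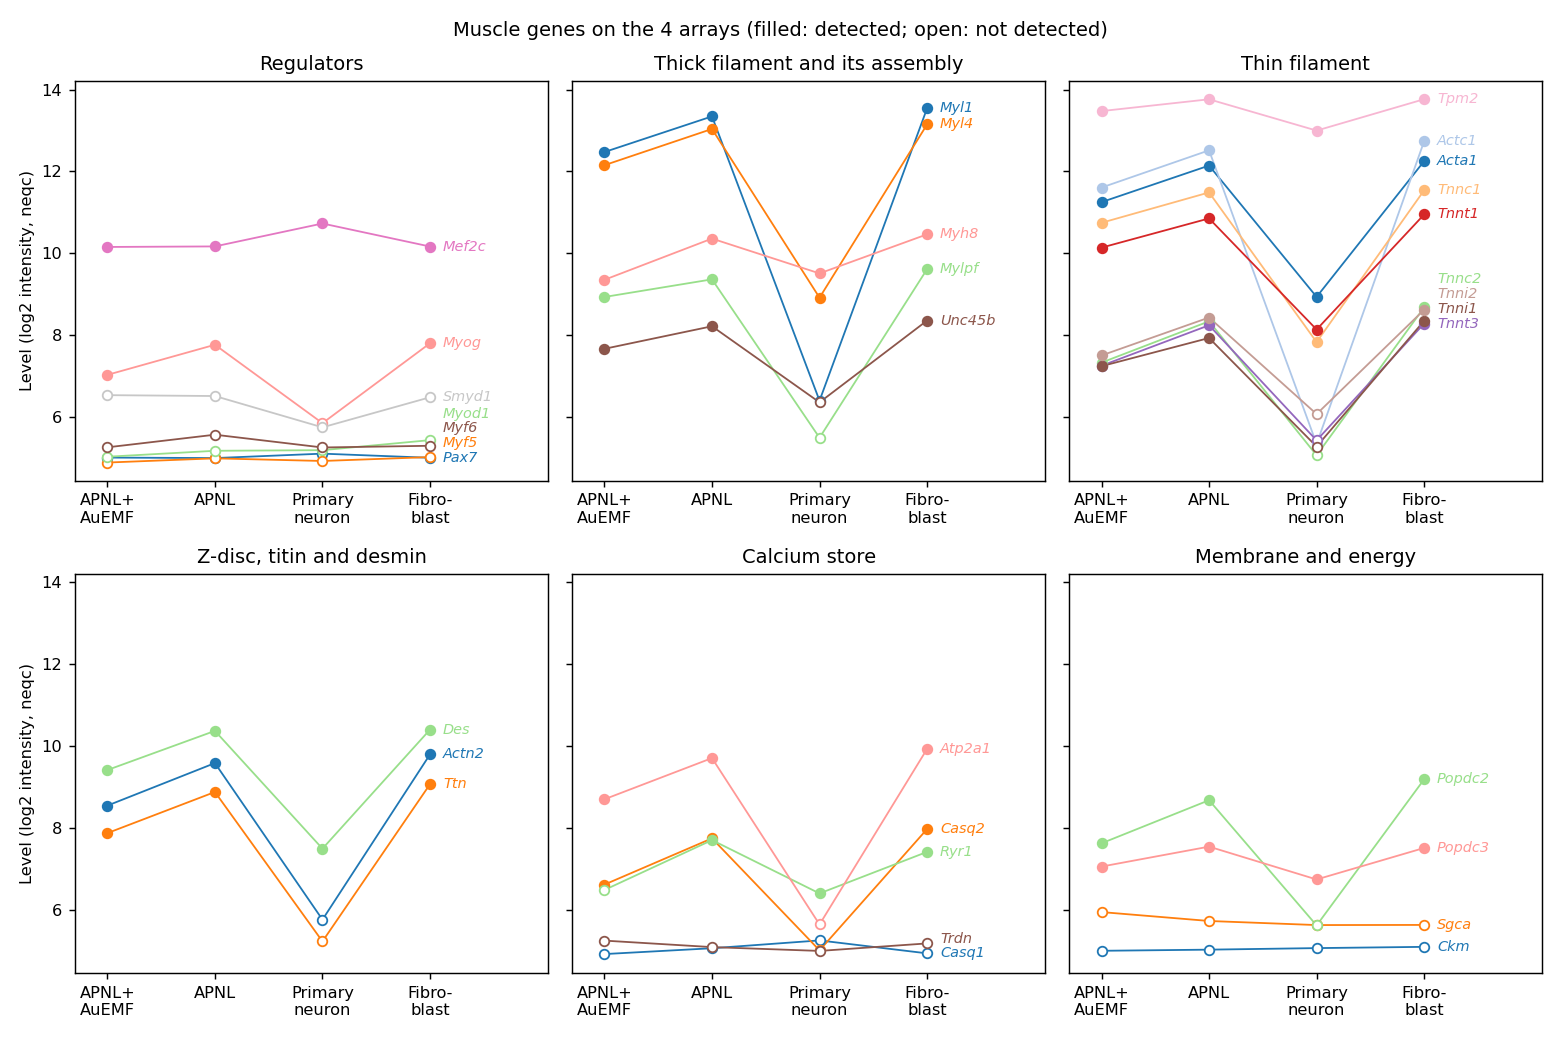
Level of each of the 33 measured muscle genes (log2 intensity after neqc) on the APNL+AuEMF, APNL, primary neuron and fibroblast arrays, in 6 panels by role; each line is 1 gene, filled points are detected and open points are not. Most lines are nearly level between APNL and fibroblasts, somewhat lower at APNL+AuEMF and lowest at primary neurons. Mef2c, Tpm2, Myh8 and Popdc3, and the genes detected on no array, differ by less than 2-fold between primary neurons and fibroblasts.

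Among the regulators, Myog, the factor that starts terminal differentiation of muscle, had a level of 7.03 in APNL+AuEMF, 7.77 in APNL and 7.80 in fibroblasts, and was not detected in primary neurons. APNL+AuEMF stood below APNL and fibroblasts, which were close to each other. Its differences were -0.77 for APNL+AuEMF against fibroblasts and -0.74 for APNL+AuEMF against APNL, neither reaching 2-fold. In primary neurons it was at least 2.71-fold lower than in fibroblasts by its brightest probe. A second Myog probe, also undetected in primary neurons, gave a measured difference of -0.91, under 2-fold. Mef2c, a partner of the myogenic factors that is also known in cortical neurons and in myeloid cells, went its own way: 10.16 in APNL+AuEMF, 10.17 in APNL and 10.73 in primary neurons, against 10.17 in fibroblasts. By its brightest probe it was the only detected member whose primary neuron level was above the fibroblast level, by 0.56.

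All 5 thick filament genes with a probe were detected. Myl1, a myosin light chain of fast and embryonic fibres, had levels of 12.47 in APNL+AuEMF, 13.35 in APNL and 6.40 in primary neurons, against 13.54 in fibroblasts. In primary neurons, where it was detected close to the limit, it was 141-fold lower than in fibroblasts, and it was 2.10-fold lower in APNL+AuEMF than in fibroblasts. These values rest on 1 probe. A second Myl1 probe with the same transcript accession was detected on no array and read 6.42 in fibroblasts. Myl4, the light chain of atrial and embryonic muscle, had levels of 12.15 in APNL+AuEMF, 13.04 in APNL and 8.92 in primary neurons, against 13.15 in fibroblasts. The array order was the same as for Myl1, but primary neurons kept 5.31% of the fibroblast level of Myl4 and 0.707% of that of Myl1. Mylpf, the regulatory light chain of fast fibres, had levels of 8.93 in APNL+AuEMF, 9.36 in APNL and 9.61 in fibroblasts and was not detected in primary neurons. Unc45b, a chaperone that folds muscle myosin, had levels of 7.67, 8.22 and 8.36 on the APNL+AuEMF, APNL and fibroblast arrays and was likewise not detected in primary neurons.

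Myh8, the perinatal myosin heavy chain, did not share the low primary neuron level of its light chains. Its levels were 9.35 in APNL+AuEMF, 10.36 in APNL and 9.51 in primary neurons, against 10.46 in fibroblasts. APNL+AuEMF and primary neurons were close to each other, with a difference of -0.16, and both lay below APNL and fibroblasts. It was 2.01-fold lower in APNL+AuEMF than in APNL. A second Myh8 probe gave the same order, with 6.94 in APNL+AuEMF, 7.92 in APNL, 6.95 in primary neurons and 8.10 in fibroblasts. By this probe APNL+AuEMF differed from APNL by -0.98, under 2-fold. Primary neurons differed from fibroblasts by -1.15, past 2-fold, where the brightest probe gave -0.96, so both calls depended on the probe. The heavy chain genes are close copies of each other, and whether either probe also reads another of them was not tested.

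The thin filament is built on the striated actins. Actc1, the actin of heart and embryonic skeletal muscle, had levels of 11.61 in APNL+AuEMF, 12.52 in APNL and 12.74 in fibroblasts, and was not detected in primary neurons. It was at least 83.1-fold lower in primary neurons than in fibroblasts and 2.19-fold lower in APNL+AuEMF than in fibroblasts. Acta1, the adult skeletal actin, had levels of 11.25 in APNL+AuEMF, 12.14 in APNL and 8.93 in primary neurons, against 12.25 in fibroblasts. The order of the arrays was that of Actc1, yet Acta1 was well detected in primary neurons, at 10.0% of the fibroblast level. The actins are near-identical in their coding parts, and cross-reading between their probes was not tested.

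Of the troponins, which make the filament sensitive to calcium, Tnnc1 (slow and cardiac troponin C) had levels of 10.75 in APNL+AuEMF, 11.49 in APNL and 7.83 in primary neurons, against 11.54 in fibroblasts. Tnnt1, the slow troponin T, had 10.14 in APNL+AuEMF, 10.85 in APNL and 8.14 in primary neurons, against 10.95 in fibroblasts. These slow forms were detected on every array. The fast forms Tnnc2, Tnnt3 and Tnni2 and the slow inhibitor Tnni1 were not detected in primary neurons. For these 4 the levels lay between 7.24 and 7.50 in APNL+AuEMF, 7.93 and 8.43 in APNL, and 8.28 and 8.68 in fibroblasts. All 4 were at least 2-fold lower in APNL+AuEMF than in fibroblasts, from 2.04-fold for Tnnt3 to 2.55-fold for Tnnc2, whereas Tnnc1 and Tnnt1 were 1.74-fold and 1.75-fold lower.

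Tpm2, a tropomyosin that lies along the actin filament in muscle and, as other splice forms, in non-muscle cells, differed between its probes. By its brightest probe it was at 13.48 in APNL+AuEMF, 13.76 in APNL and 13.00 in primary neurons, against 13.77 in fibroblasts. By a second probe it was at 10.51 in APNL+AuEMF, 11.44 in APNL and 7.05 in primary neurons, against 11.60 in fibroblasts. The first probe thus varied little, by -0.77 between primary neurons and fibroblasts, and the second by -4.55. The second probe was lower in APNL+AuEMF than in APNL and lowest in primary neurons, and the remaining probe was detected on no array. The annotation gives all its probes the same transcript accession, and which form each reads was not tested.

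All 3 Z-disc and scaffold genes were lower in primary neurons than in fibroblasts. Actn2, the actinin that anchors thin filaments at the Z-disc, had levels of 8.54 in APNL+AuEMF, 9.58 in APNL and 9.80 in fibroblasts, and was not detected in primary neurons. Ttn, the giant spring protein titin, had 7.87, 8.88 and 9.07 on the APNL+AuEMF, APNL and fibroblast arrays and was not detected in primary neurons either. Both were over 2-fold lower in APNL+AuEMF than in APNL, with differences of -1.04 and -1.01. Des, the muscle intermediate filament desmin, had levels of 9.41 in APNL+AuEMF, 10.37 in APNL and 7.49 in primary neurons, against 10.40 in fibroblasts. Its difference between APNL+AuEMF and fibroblasts, -0.99, lay just under the threshold.

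Of the calcium store genes, Atp2a1, the fast calcium pump, had levels of 8.70 in APNL+AuEMF, 9.71 in APNL and 9.93 in fibroblasts, and was not detected in primary neurons. Casq2, the cardiac calsequestrin that holds calcium in the store, had 6.61, 7.74 and 7.97 on the APNL+AuEMF, APNL and fibroblast arrays and was not detected in primary neurons. It was 2.56-fold lower in APNL+AuEMF than in fibroblasts. Ryr1, the calcium release channel, was close to the detection limit. Its brightest probe read 7.70 in APNL, 6.40 in primary neurons and 7.41 in fibroblasts and was not detected in APNL+AuEMF, while another probe was detected in APNL+AuEMF and primary neurons only.

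Popdc2, a membrane protein of striated muscle that binds cyclic AMP, had levels of 7.62 in APNL+AuEMF, 8.68 in APNL and 9.19 in fibroblasts, and was not detected in primary neurons. By its brightest probe it was 2.96-fold lower in APNL+AuEMF than in fibroblasts, the largest such difference among the members. In APNL it was 1.43-fold lower than in fibroblasts, again the largest of that comparison. Both ranks depended on the probe. A second detected Popdc2 probe gave differences from fibroblasts of -1.06 in APNL+AuEMF and -0.31 in APNL. Between APNL+AuEMF and APNL the second probe gave -0.75, under 2-fold. Its relative Popdc3 varied less, with 7.05 in APNL+AuEMF, 7.54 in APNL and 6.74 in primary neurons, against 7.51 in fibroblasts.

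Set against fibroblasts, APNL+AuEMF was lower for all 24 detected members in measured value, by only 0.01 for Mef2c, and 13 of them reached 2-fold. At a detection p under 0.05 Smyd1 also counted, with a difference of 0.05. The median of all genes was below 0 too. The share of all genes below 0 was not counted, so the sign alone is not read further. No member was 2-fold higher. Over all genes 1.68% were lower and 5.22% higher at that fold. The median difference of the members was -1.02, which is 49.4% of the fibroblast level, and that of all 8675 compared genes was -0.08. The 13 lower members were 6 of 9 thin filament genes, 2 of 5 thick filament genes, Actn2 and Ttn, Casq2 and Atp2a1, and Popdc2. By role, the median difference was -0.39 over 2 regulators, -0.996 over 5 thick filament genes, -1.03 over 9 thin filament genes, -1.20 over 3 Z-disc genes, -1.23 over 3 calcium store genes and -1.01 over 2 membrane genes. Acta1 at -1.003 lay just inside the threshold, and Myl4 at -0.996 just outside it. With no background correction 5 members and 0.207% of all genes were lower, and with a background fit that uses no control information and an offset of 50 it was 7 members and 0.426% of all genes. At a 3-fold threshold it was 0 members and 0.0115% of all genes.

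**Figure D2:**
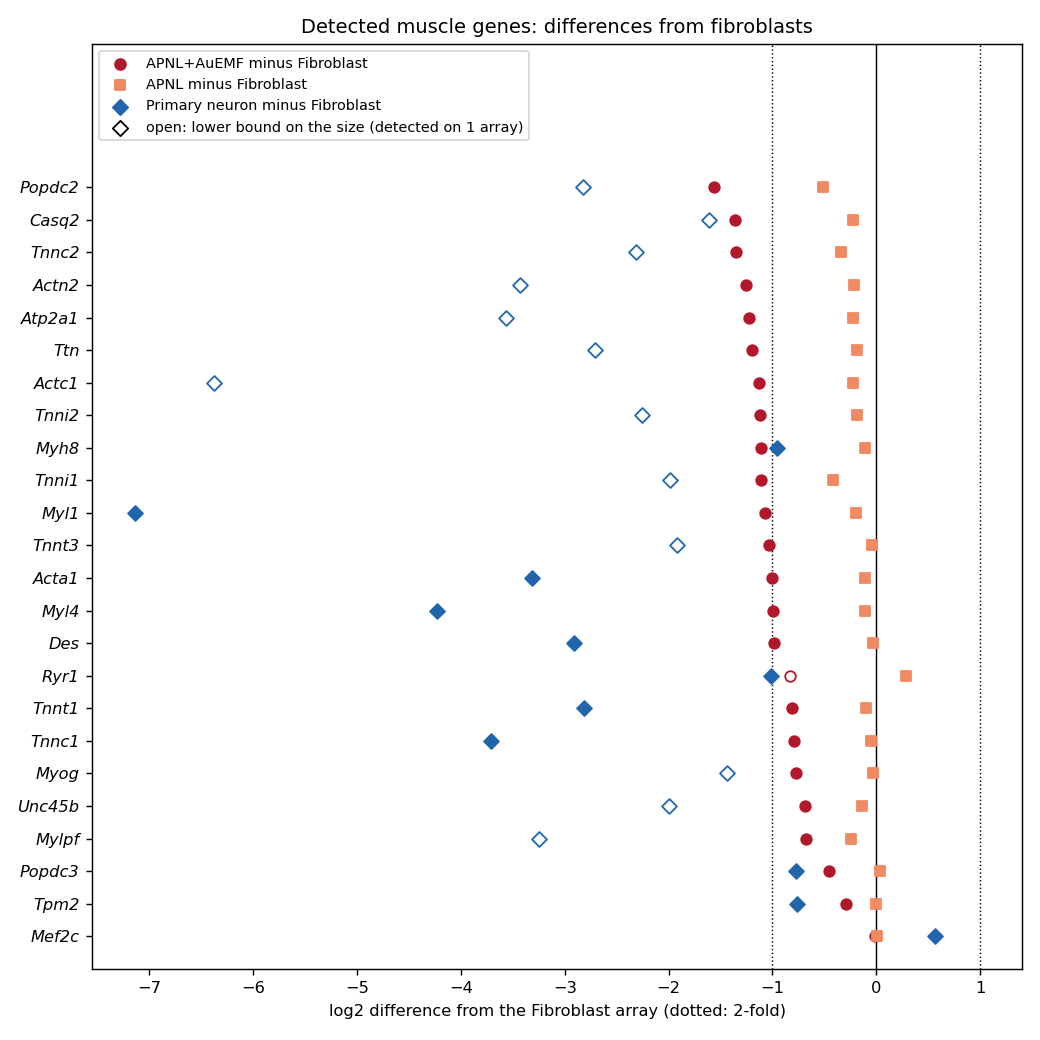
Difference of each of the 24 detected muscle genes from the fibroblast array (log2), for APNL+AuEMF (circles), APNL (squares) and primary neurons (diamonds); open symbols are lower bounds and dotted lines mark 2-fold. The APNL+AuEMF points lie between -1.56 for Popdc2 and -0.01 for Mef2c, the APNL points between -0.51 and 0.29, and the primary neuron points reach -7.14 for Myl1.

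Set against fibroblasts, APNL showed no member at 2-fold in either direction, where over all genes 0% were lower and 1.55% higher. The median difference of the 24 members was -0.12 and that of all 8242 compared genes was -0.015. Measured values were below those of fibroblasts for 21 members, from -0.51 for Popdc2 and -0.42 for Tnni1 upward. The exceptions were Ryr1 at 0.29, Popdc3 at 0.03 and Mef2c at 0.00. The share of all genes below 0 was not counted. Under every alternative tried the counts of called members were 0 lower and 0 higher.

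Set against APNL, APNL+AuEMF shows the difference that goes with AuEMF, without the fibroblast array. All 24 detected members were lower in APNL+AuEMF in measured value, by only 0.01 for Mef2c, and the median of all genes was below 0 too. The share of all genes below 0 was not counted. Smyd1, which counted at a detection p under 0.05, had a difference of 0.02. Of the 24, 8 reached 2-fold, where over all genes 0.759% were lower and 3.14% higher. The 8 were Myh8, Tnnc2, Actn2, Ttn, Casq2, Atp2a1, Ryr1 and Popdc2, and the 7 detected on both arrays differed by -1.13 for Casq2 to -1.01 for Ttn, close to the threshold. Ryr1 was not detected in APNL+AuEMF by its brightest probe, and its difference is a bound of -1.12, with a measured value of -1.22. By another Ryr1 probe, detected in APNL+AuEMF but not in APNL, the difference was -0.27, so this call depended on the probe. The median over the members was -0.90, or 53.5% of the APNL level, and that over all 8700 compared genes was -0.05. Among the 20 members at least 2-fold lower in primary neurons than in fibroblasts, the quartiles of the difference were -1.01 and -0.74 and its range in measured values ran from -1.22 to -0.43. For the 1308 other genes that were as much lower in primary neurons and could be compared here, the median was -0.42, and 4.05% were 2-fold lower, against 35.0% of the 20 members.

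This count rested on the processing. With no background correction 0 members reached 2-fold, where 0% of all genes were 2-fold lower. With the background fit without control information it was 0 members and 0.046% of all genes, and with the mean of a gene's probes 5 members and 0.632% of all genes. The member median stayed below 0 in each case, at -0.66, -0.75 and -0.89.

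Other cell type markers differed between the same arrays. Of 10 compared macrophage markers 8 were higher in APNL+AuEMF than in APNL and 0 were lower. The list was detected for 10 of 12 genes in APNL+AuEMF, 7 in APNL, 7 in primary neurons and 6 in fibroblasts. Its summed linear level was 22451 in APNL+AuEMF, 3080 in APNL, 1645 in primary neurons and 3386 in fibroblasts. Itgam and Ptprc, which mark cells of the blood lineage, were detected on no array. Of 18 compared neuron markers 12 were higher in APNL+AuEMF than in APNL and 0 lower, and the list of 20 was detected for 18 genes in APNL+AuEMF, 16 in APNL, 18 in primary neurons and 12 in fibroblasts. Its summed level was 42180 in APNL+AuEMF, 23622 in APNL, 129978 in primary neurons and 13352 in fibroblasts, and Nefl and Snap25 were detected nowhere. Fibroblast markers had 1 of 22 higher in APNL+AuEMF than in APNL, decorin (Dcn), and 0 lower, with a median of -0.18. Their summed level was 302844 in APNL+AuEMF, 307996 in APNL, 144706 in primary neurons and 320779 in fibroblasts, and Postn and Tcf21 were detected nowhere. The part of these cell types in the lower muscle levels was not tested.

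**Figure D3:**
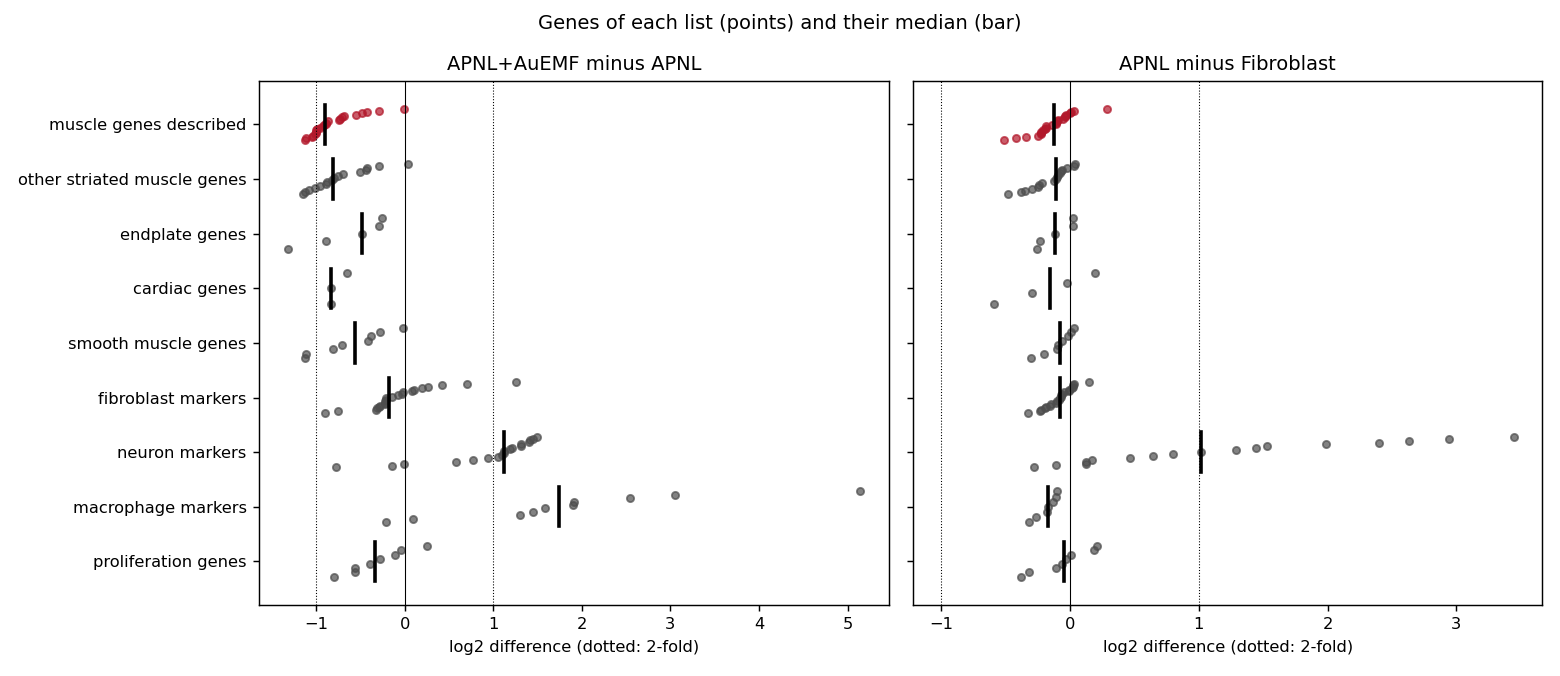
Difference of each compared gene (points) and median (bar) for the muscle genes described and 8 other lists, for APNL+AuEMF minus APNL on the left and APNL minus fibroblast on the right (log2, at bounds; dotted lines at 2-fold). On the left the muscle genes centre at -0.90, the fibroblast markers at -0.18 and the macrophage markers at 1.74; on the right the muscle genes centre at -0.12.

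Other genes of striated muscle, on a list of 69 symbols of which 55 had a probe, were read beside the members, and 38 of the 55 were detected on no array. These included Pax3, Mstn and the adult heavy chains Myh1 and Myh4. Of the 16 compared between APNL+AuEMF and APNL, 4 were lower and 0 higher, with a median of -0.81. Of the 17 compared between APNL+AuEMF and fibroblasts, 8 were lower and 0 higher, with a median of -1.01, or -0.99 at bounds. Myl3, a light chain of slow and cardiac muscle, had levels of 9.72 in APNL+AuEMF, 10.81 in APNL and 10.90 in fibroblasts, and was not detected in primary neurons. Csrp3, a Z-disc protein, had 8.19, 9.32 and 9.43 on the APNL+AuEMF, APNL and fibroblast arrays and was not detected in primary neurons. Of 5 compared endplate genes 1 was lower in APNL+AuEMF than in APNL and 0 higher, with a median of -0.48. That gene, Chrng, the fetal receptor subunit, was at 7.23 in APNL+AuEMF, 8.55 in APNL and 8.78 in fibroblasts, and not detected in primary neurons.

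Primary neurons, set against fibroblasts, gave the scale of the largest differences. Of 24 compared members 20 were lower and 0 higher, where over all genes 14.9% were lower and 11.0% higher. The members had a median difference of -3.02, or -2.51 at bounds, and that of all 8987 compared genes was -0.10. The 4 that were neither, by their brightest probes, were Mef2c, Tpm2, Myh8 and Popdc3. The members still detected in primary neurons beside these were Myl1, Myl4, Acta1, Tnnc1, Tnnt1, Des and Ryr1. Where detection on both arrays was asked for, 11 members could be compared and 7 were lower, against 15.1% of all genes. Scaling in place of quantile normalization moved the median of all genes to -0.29 and that of the members to -3.21.

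Against primary neurons, APNL+AuEMF was higher for 14 of 24 members and lower for 0, where over all genes 7.42% were higher and 6.74% lower. The median difference was 1.98, or 1.28 at bounds. Myl1 was 67.4-fold higher in APNL+AuEMF, Actc1 at least 37.9-fold and Myl4 9.43-fold. APNL was higher than primary neurons for 20 of 24 members and lower for 0, where over all genes 12.7% were higher and 10.7% lower, with a median of 2.85, or 2.19 at bounds. In 20 of the 24 detected members the order of levels from low to high was primary neuron, APNL+AuEMF, APNL and fibroblast. The same order held for 23.7% of the 9184 genes detected on at least 1 array.

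Probes of the same gene were compared for the 8 members with at least 2 detected probes. In the difference of APNL+AuEMF from APNL the probes of Myh8, Unc45b, Myog and Actc1 were within 0.14 of each other. Those of Popdc2 were 0.30 apart, those of Tpm2 0.65, those of Mef2c 0.66 and those of Ryr1 0.95. One Mef2c probe had levels of 7.69 in APNL+AuEMF, 8.37 in APNL and 7.43 in primary neurons, against 8.45 in fibroblasts, so it was lower in primary neurons, unlike the brightest. The sign of the Mef2c difference between primary neurons and fibroblasts thus depended on the probe.

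**Figure D4:**
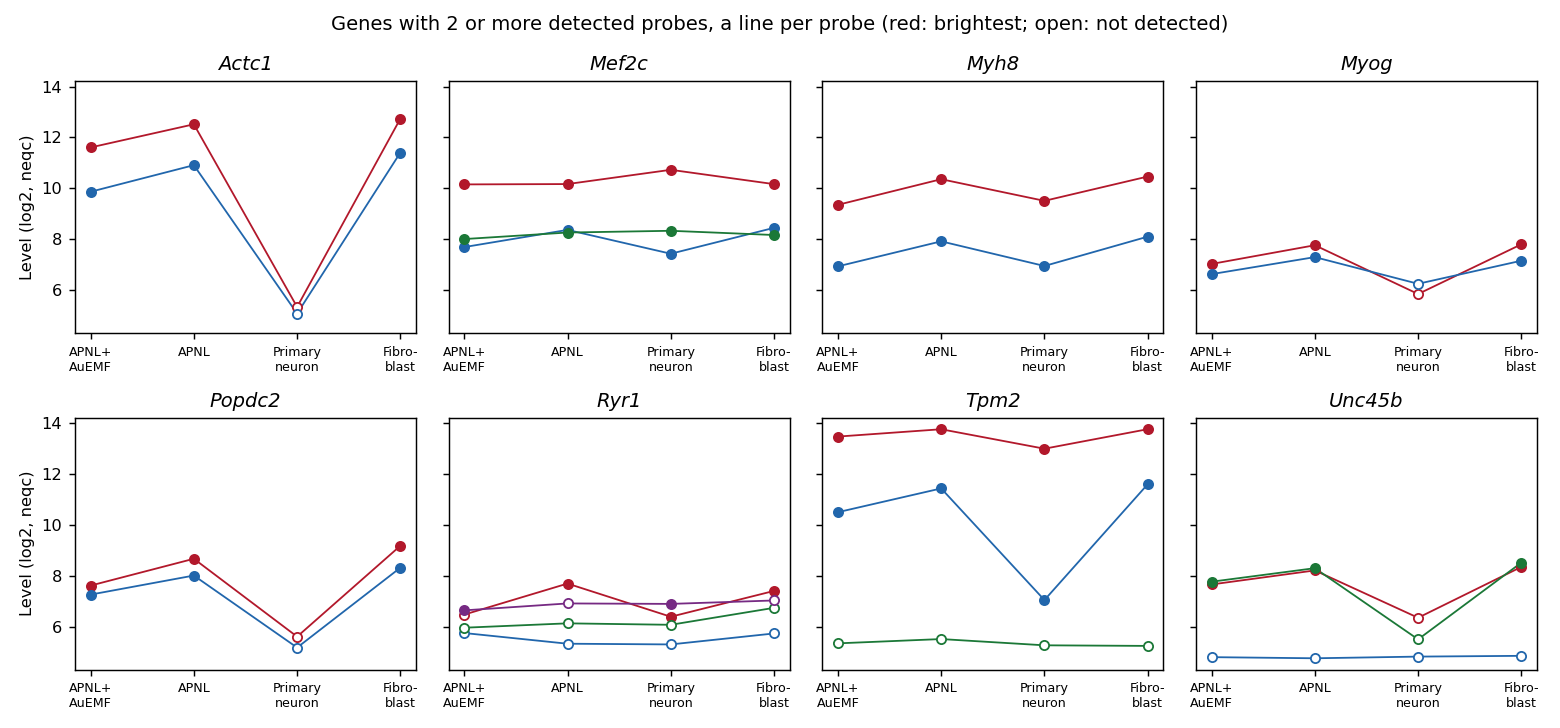
Level (log2 intensity after neqc) on the 4 arrays for each probe of the 8 muscle genes with at least 2 detected probes; red lines are the brightest probes and open points are not detected. Between APNL+AuEMF and APNL the detected probes of Actc1, Myh8, Myog and Unc45b run alike, while those of Mef2c, Ryr1 and Tpm2 part. In the difference of primary neurons from fibroblasts the detected probes of Tpm2 are 3.78 apart and those of Mef2c 1.58. Those of Actc1 are 1.07 apart, of Myog 1.05, of Unc45b 1.02, of Ryr1 0.88, of Popdc2 0.43 and of Myh8 0.20.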

How the data were processed

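Each array took 0.55 ug of RNA, per the labels' protocols, and GenomeStudio 2011.1 is listed in the submitters' processing notes. The authors deposited linear probe intensity values with no normalization between arrays, each beside a detection p-value. How background was handled before that, scan order and chip layout are not stated. They also deposited log2 values, equal to the quantile-normalized log2 intensity to within 5e-07.

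Levels were computed with neqc of limma 3.58.1 in R 4.3.3 (background fitted from the detection p-values, offset 16, quantile normalization, log2), which shrinks differences of dim genes. Of 25697 probes 23978 had 1 gene symbol and 1719 none. All 33 measured members matched the reference table by identifier. Each gene is given by its brightest probe, detected at p under 0.01. Where only 1 array detected it, the other level was taken as the higher of its own value and the lowest detected level of that array. Medians use measured values unless given at bounds, and percentages of a level are at bounds.

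All members could be named, and from each other list up to 4 genes with the largest differences. Members, lists and alternatives were chosen with earlier results of these data known. Acta2, Dcn, genes named as undetected and genes with discordant probes were singled out after their values were seen. The 9 alternatives changed the background step, the normalization, the detection filter, the probe rule or the fold. Among them, no background correction and the deposited log2 values amount to the same processing and are not independent of each other. Steps were tested on simulated data (Python 3.11.15, pandas 2.3.3). The simulated differences were 4-fold and set on bright probes, so calls near 2-fold and differences of dim genes were not tested.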

Additional observations from a re-analysis of the deposited data

How the results depend on the processing

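No paired analysis was possible because each group has 1 array, and for the same reason no array could be left out. None of the members called higher or lower changed sign under any alternative tried. Of the recomputed counts and medians 144 stayed within 1.5-fold of the value reported and 20 did not. Many of the 144 were counts of 0 that stayed 0. The deposited log2 values also repeat the setting with no background correction, so its results were counted again.

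Members lower in APNL+AuEMF than in fibroblasts numbered 13, and 5 with no background correction and with the authors' deposited log2 values (0.207% of all genes), 7 with normexp and an offset of 50 (0.426%), and 0 at 3-fold (0.0115%). Members lower in APNL+AuEMF than in APNL numbered 8, and 0 with no background correction, with the deposited log2 values and at 3-fold (each 0% of all genes), 0 with normexp (0.046%), and 5 with the mean of a gene's probes (0.632%). With detection asked for on both arrays, fewer genes were compared. Then 7 of 11 members were lower in primary neurons than in fibroblasts (15.1% of all genes). Against primary neurons, 6 of 10 members were higher in APNL+AuEMF (6.92% of all genes) and 7 of 11 in APNL (12.5%).

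The median difference of primary neurons from fibroblasts was -2.11 with no background correction and with the deposited log2 values. The median of APNL+AuEMF against primary neurons was 1.07 with these and 1.36 with normexp, and that of APNL against primary neurons 1.77 and 2.15. Signal over background limits 9 members, undetected on every array, for which no comparison was possible.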

Other observations

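Genes known from heart and smooth muscle were also measured. Of 13 cardiac genes with a probe 9 were detected on no array, among them the heart transcription factor genes Nkx2-5, Gata4, Tbx5 and Tbx20. Nppa, the atrial natriuretic peptide gene, had levels of 10.44 in APNL+AuEMF, 11.28 in APNL and 11.30 in fibroblasts, and was not detected in primary neurons. Myh6, the alpha heavy chain of heart muscle, had 8.12, 8.78 and 9.37 on the APNL+AuEMF, APNL and fibroblast arrays and was not detected in primary neurons. Of the 3 cardiac genes compared between APNL+AuEMF and APNL none reached 2-fold, and their median was -0.83.

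Of 8 compared smooth muscle genes 2 were lower in APNL+AuEMF than in APNL and 0 higher, with a median of -0.56. These were Lmod1, a leiomodin, and Myocd, the myocardin gene, whose levels were 7.37 in APNL+AuEMF, 8.50 in APNL and 8.48 in fibroblasts. Against fibroblasts 7 of the 8 were lower in primary neurons, with a median of -2.16, or -2.06 at bounds. For the other one, the smooth muscle actin gene Acta2, no difference could be read. Its probe was at the top of the signal range, ranking between 1 and 4 from the brightest of 25697 on every array. Its raw intensity was 68254 in primary neurons and 67866 in fibroblasts, where the highest were 68765 and 68873. Quantile normalization also sets such levels by rank. Of 8 proliferation genes none reached 2-fold between APNL+AuEMF and APNL, and their median was -0.34.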
